A study of Mus musculus with 4 samples.

Results

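Genes of the skeletal muscle sarcomere and of muscle metabolism were followed in the lumbar spinal cord of mice after nerve injury. The 40 members, out of 27179 counted genes, were chosen by name for their known place in muscle fibres. Earlier results of these data were known when they were chosen, so comparisons of the members with all genes are descriptive. All 40 were found through their Entrez identifiers. The data are 4 poly(A) RNA-seq libraries from cord segments L4-6 of male C57BL/6J animals. By their titles, 2 libraries belong to mice with a sciatic nerve cuff, a constricting tube that serves as a model of lasting neuropathic pain, and 2 to sham controls, and the series' design text puts surgery 28 days earlier. Neither age nor the number of mice per library is stated, so the p-values here reflect how far these libraries differ, and part of that may be technical. The libraries labelled cuff are called C1 and C2 and those labelled sham S1 and S2, by their replicate numbers. In all 4 cases the deposited file is named for the other condition than the sample title. Groups follow the titles, and every direction between C and S libraries is the reverse of this if the titles are the wrong ones.

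Striated muscle contracts when myosin thick filaments pull on actin thin filaments inside the sarcomere, whose borders are the Z-discs and whose centre is the M-band. Calcium released from the sarcoplasmic reticulum binds troponin C and moves tropomyosin away from the myosin sites on actin, and creatine kinase, glycogen phosphorylase and myoglobin help to supply ATP and oxygen. Fast and slow fibres use different genes for many of the same parts, such as the troponins and the myosin chains. The spinal cord contains no skeletal muscle fibres, but it holds the motor neurons that drive them, and vertebrae and back muscles lie around it. Some members are also expressed outside muscle, among them Pygm, whose glycogen phosphorylase is found in astrocytes, and Des and Tpm2, which smooth muscle cells express.

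The promoters of 4 members are shown because their genes span the range of behaviour described below. Acta1 and Myh4 differed between libraries in nearly the same proportion, Ckm followed them closely, and Pygm hardly differed. Each window is the 250 bases before the start of the gene in RefSeq, in build GRCm38.p6. The windows are chr11:67237562-67237811 on the plus strand for Myh4 and chr8:123894776-123895025 on the minus strand for Acta1. Those of Ckm, chr7:19410844-19411093, and Pygm, chr19:6384158-6384407, are on the plus strand. Capitals mark an E-box (CANNTG), a MEF2 motif, a CArG motif or TATAAA, and in these windows no marked motif overlaps another.
Myh4: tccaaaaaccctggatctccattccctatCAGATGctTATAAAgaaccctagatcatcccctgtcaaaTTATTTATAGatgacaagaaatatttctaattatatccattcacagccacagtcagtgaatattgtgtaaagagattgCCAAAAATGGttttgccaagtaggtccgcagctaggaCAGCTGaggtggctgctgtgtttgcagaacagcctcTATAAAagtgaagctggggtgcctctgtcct
Acta1: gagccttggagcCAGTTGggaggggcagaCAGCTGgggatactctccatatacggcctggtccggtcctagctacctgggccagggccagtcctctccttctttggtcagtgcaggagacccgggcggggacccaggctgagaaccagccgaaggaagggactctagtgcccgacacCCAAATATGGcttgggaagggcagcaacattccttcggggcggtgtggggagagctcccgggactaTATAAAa
Ckm: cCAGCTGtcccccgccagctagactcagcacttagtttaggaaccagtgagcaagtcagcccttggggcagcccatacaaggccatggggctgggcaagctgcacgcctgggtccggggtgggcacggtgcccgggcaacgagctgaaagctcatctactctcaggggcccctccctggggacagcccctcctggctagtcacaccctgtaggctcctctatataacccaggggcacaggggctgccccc
Pygm: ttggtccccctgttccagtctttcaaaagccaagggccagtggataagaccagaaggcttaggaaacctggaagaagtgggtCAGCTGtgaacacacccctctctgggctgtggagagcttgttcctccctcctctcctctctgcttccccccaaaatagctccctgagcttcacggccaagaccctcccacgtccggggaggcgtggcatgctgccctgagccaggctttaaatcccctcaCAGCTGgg
The window of Myh4 held 2 E-boxes, 1 MEF2 motif, 1 CArG motif and 2 copies of TATAAA, and that of Acta1 held 2 E-boxes, 1 CArG motif and 1 TATAAA. The windows of Ckm and Pygm held E-boxes alone, 1 and 2. For the list as a whole, promoter windows were at hand for 32 of the 40 members. Not all of these lie before the RefSeq start. That of Mylpf, for example, begins at 127211358, inside a gene that starts at 127208848. Some members, such as Mb, have more than 1 window. An E-box was present in 28 of these 32 (87.5%), against 69.3% of 27025 genes with a window of this length. MEF2, CArG and TATAAA motifs were each present in 5 of the 32 (15.6%), against 3.42%, 1.62% and 8.94% of all genes. TATAAA was searched on the strand of the gene and the other motifs on both strands, and a match describes the letters only.

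Muscle genes took a small and unequal share of each library. Counts per library summed to between 32936609 and 39461573, and the 40 members together took 0.0535% of them in C1, 0.130% in C2, 0.0416% in S1 and 0.0352% in S2. Pygm alone gave 6418 counts in C1, 6259 in C2, 6045 in S1 and 5981 in S2. Levels are given as CPM, counts scaled to library size with the trimmed mean of M values. Without Pygm, the other 39 members summed to 357 CPM in C1, 1076 in C2, 272 in S1 and 199.5 in S2. C2 thus stood 3.01-fold above C1, 3.96-fold above S1 and 5.39-fold above S2. All 40 members had their highest CPM in C2, as 34.5% of all tested genes did. The lowest CPM was in S2 for 31 of 40, against 25.2% of all tested genes.

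**Figure D1:**
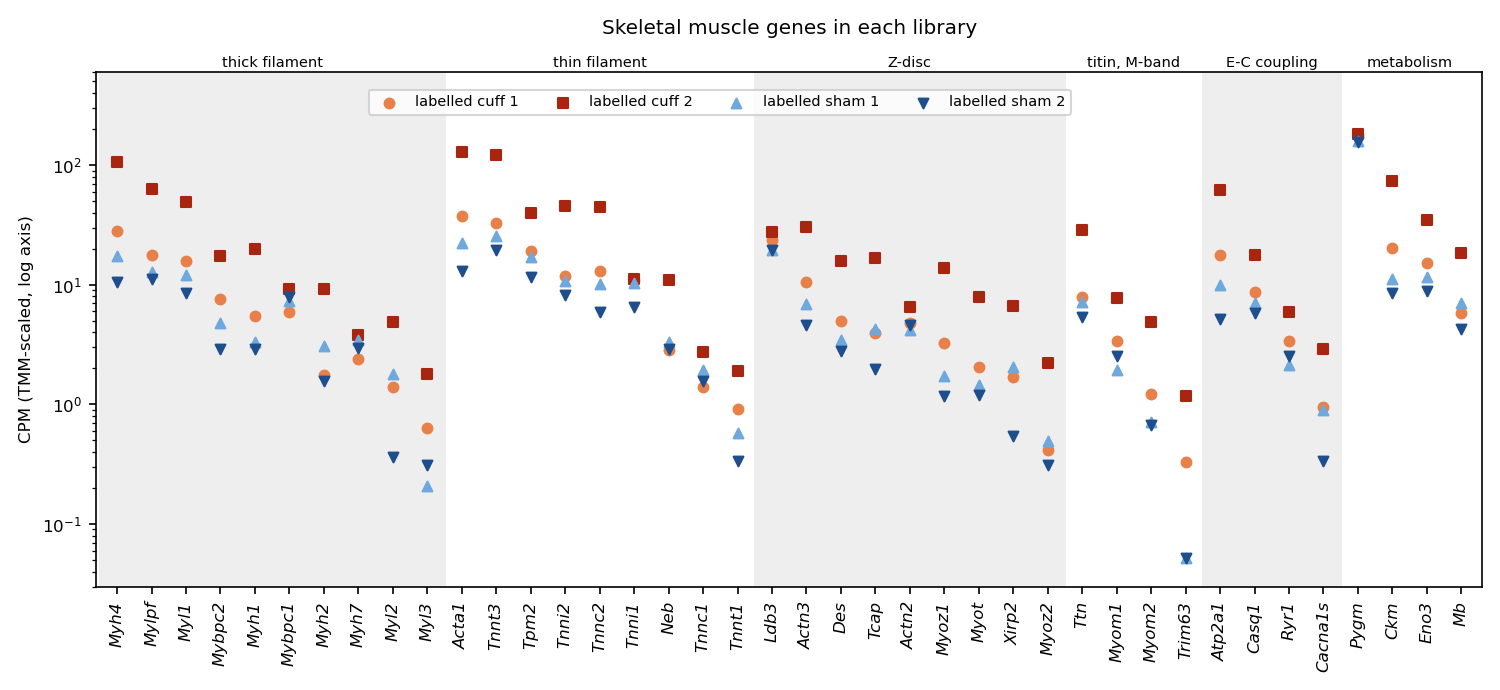
CPM of each of the 40 muscle genes (log axis) in the 4 libraries, grouped by role and ordered by mean CPM. The second library labelled cuff is highest for all 40, and the 4 points of Pygm, Ldb3, Mybpc1, Myh7, Tnni1 and Actn2 lie close together.

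Spinal cord genes were present in all 4 libraries, as the tissue label says. Mbp, which encodes myelin basic protein, was at 20501 CPM in C1, 18187 in C2, 19260 in S1 and 15192 in S2. C2 stood apart in some genes of position along the cord, Hoxc8, Hoxb13 and Hoxc13, which were picked after their values were seen. It stood less apart in others. Hoxc10 was at 80.7 CPM in C1, 72.8 in C2, 57.4 in S1 and 74.4 in S2, so C2 lay between the S libraries. Hoxd10 was at 55.6 CPM in C1, 70.8 in C2, 40.3 in S1 and 52.0 in S2. Hoxc8, which is active in more anterior segments, was at 42.03 CPM in C1, 10.2 in C2, 45.5 in S1 and 32.8 in S2. Hoxb13, of the posterior end, was at 0.166 CPM in C1, 8.32 in C2, 1.86 in S1 and 2.80 in S2. Hoxc13 was at 2.97 CPM in C1, 13.4 in C2, 3.35 in S1 and 5.05 in S2. Slc6a5, the glycine transporter of inhibitory neurons, was at 73.9 CPM in C1, 57.8 in C2, 104 in S1 and 155 in S2 and fell (log2 fold change -0.97 ± 0.20, adjusted p = 0.0348, edgeR). The part of these differences in the muscle values was not tested. Summed levels of 6 motor neuron genes were 282 CPM in C1, 213 in C2, 293 in S1 and 269 in S2, lowest in the library where muscle transcript was highest. The genes of this list were divided. Chat, Mnx1 and Slc5a7 were lowest in C2, and Slc18a3, Prph and Isl1 were not. Slc5a7 was at 104 CPM in C1, 62.0 in C2, 131 in S1 and 114 in S2. Prph was at 87.5 CPM in C1, 81.5 in C2, 78.7 in S1 and 75.8 in S2. In bulk tissue, fewer cells of a type and less RNA per cell cannot be told apart.

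The comparison of the labelled groups asked which muscle genes differed in the lumbar cord after cuff and sham surgery. Of the 40 members, 39 had a positive log2 fold change (C minus S), and 32 were above 1 (80.0%, against 3.78% of all tested genes). In edgeR's quasi-likelihood test, adjusted by Benjamini-Hochberg over 16918 genes, 1 member (2.50%) was called at an adjusted p under 0.05, Trim63, which was higher. Of all tested genes 4.11% were called, 1.15% higher and 2.96% lower. Unadjusted p-values were under 0.05 for 12 of 40 members (30.0%), against 21.5% of all tested genes. The median log2 fold change was 1.65 over the members (quartiles 1.07 and 1.86) and 0.02 over all tested genes (quartiles -0.21 and 0.25). CPM did not overlap between the groups in 30 of the 40, all higher in the C libraries. Of all tested genes, 54.1% did not overlap, and 28.2% did so with the C libraries higher. All 40 members passed the filter on low counts, but Trim63 and Myl3 would not have passed on the S libraries alone, so their direction was favoured by the filter.

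**Figure D2:**
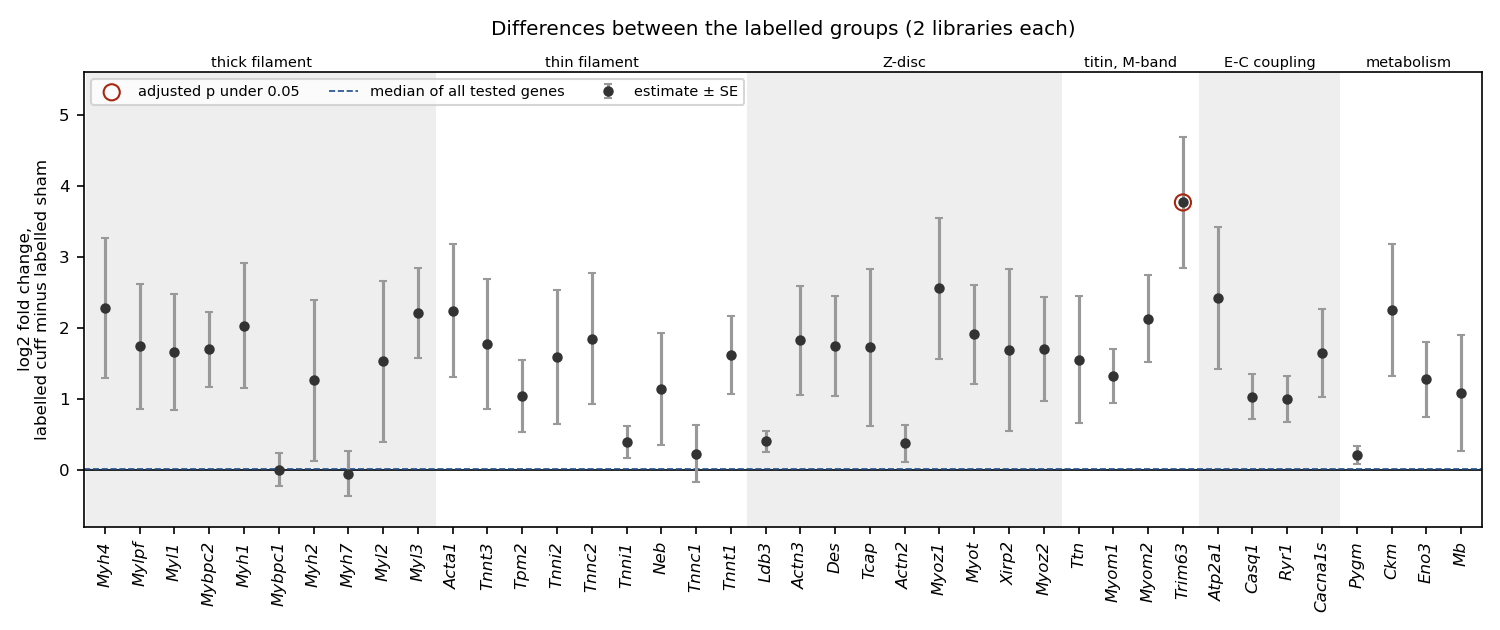
Log2 fold change (labelled cuff minus labelled sham, 2 libraries each) of each muscle gene with its standard error, grouped by role; the circle marks an adjusted p under 0.05 and the dashed line the median of all tested genes. Of the 40 estimates 32 lie above 1, most with wide errors, and Trim63 is the single called gene.

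Single libraries decided the number of called members. Without C2, the median log2 fold change over members was 0.55, 35 of 40 were positive and 1 was called (Ckm), where 1.24% of all tested genes were called. Without C1, the median was 2.19 and 33 of 40 were called, all higher, where 11.1% of all tested genes were called. Without S1, 0 members were called by edgeR where 0.0% of all tested genes were called, and 7 of 40 had an unadjusted p under 0.05, as 12.9% of all tested genes did. Without S2, 0 members were called by edgeR where 0.0742% of all tested genes were called, and 5 of 40 had an unadjusted p under 0.05, as 16.9% of all tested genes did. Each of these fits sets 1 library against 2 and assumes that the lone library varies like the others. With all libraries, the tool and its settings mattered less. Called members were 1 with RLE scaling (3.77% of all tested genes called), 2 with upper quartile scaling (4.97%), 5 with no filter (6.03%) and 1 with a mean count of at least 10 (3.47%). They were 6 of the 36 with an adjusted p in DESeq2 (7.26% of all genes), 2 with the replicate number as a block (3.27%) and 0 in limma-voom (0.869%), where 29 had an unadjusted p under 0.05, as 20.5% of all genes did.

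Thick filament genes were led by the fast chains. Myh4, the myosin heavy chain of the fastest fibres (type IIB, chromosome 11, 67237812 to 67260447), was at 28.3 CPM in C1, 107 in C2, 17.3 in S1 and 10.6 in S2. The groups did not overlap, but C2 stood 3.77-fold above C1, and the difference did not pass (log2 fold change 2.28 ± 0.99 (SE), adjusted p = 0.385, edgeR). Mylpf, the regulatory light chain of fast fibres, was at 17.6 CPM in C1, 62.6 in C2, 12.9 in S1 and 11.1 in S2 (log2 fold change 1.74 ± 0.88, adjusted p = 0.435, edgeR). Myl1, the fast alkali light chain, was at 15.7 CPM in C1, 49.02 in C2, 11.98 in S1 and 8.55 in S2 (log2 fold change 1.66 ± 0.82, adjusted p = 0.426, edgeR). Both light chains kept the order of Myh4 across the 4 libraries.

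Other thick filament genes ran from that pattern to none. Myh1 (type IIX heavy chain) was at 5.46 CPM in C1, 20.04 in C2, 3.35 in S1 and 2.90 in S2. Myh2 (type IIA) was at 1.77 CPM in C1, 9.29 in C2, 3.06 in S1 and 1.55 in S2, so that S1 lay above C1. Counts of Myh1, Myh2 and Myh4 are uncertain, since these genes on chromosome 11 are close paralogues. Myh7, the slow heavy chain, was at 2.41 CPM in C1, 3.81 in C2, 3.48 in S1 and 2.98 in S2, with overlapping groups (log2 fold change -0.05 ± 0.32, adjusted p = 0.944, edgeR). Myosin binding protein C showed the same contrast between its forms. The fast form Mybpc2 was at 7.57 CPM in C1, 17.3 in C2, 4.79 in S1 and 2.88 in S2, and Mybpc1, named for slow fibres, was at 5.88 CPM in C1, 9.23 in C2, 7.24 in S1 and 7.85 in S2. C2 was highest for both forms, but for Mybpc1 both S libraries lay above C1, and its log2 fold change of 0.00045 ± 0.24 (SE) turned negative with RLE scaling.

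The slow light chains were at low counts. Myl3, the slow alkali chain, had 23 counts in C1, 61 in C2, 8 in S1 and 12 in S2, with no overlap of the groups and the second smallest adjusted p of the members (log2 fold change 2.20 ± 0.64, adjusted p = 0.0567, edgeR). Myl2, the slow regulatory chain, had 50 counts in C1, 166 in C2, 69 in S1 and 14 in S2, so the S libraries lay further apart than they did for Mylpf.

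Thin filament genes summed to 131 CPM in C1, 406 in C2, 102 in S1 and 69.6 in S2. Acta1, skeletal muscle alpha actin (chromosome 8, 123891758 to 123894775), was at 37.8 CPM in C1, 128 in C2, 22.3 in S1 and 12.9 in S2 (log2 fold change 2.24 ± 0.94, adjusted p = 0.374, edgeR). Tnnt3, the fast troponin T that ties the troponin complex to tropomyosin, was at 33.1 CPM in C1, 121 in C2, 25.6 in S1 and 19.6 in S2 (log2 fold change 1.77 ± 0.91, adjusted p = 0.443, edgeR). Each was higher in both C libraries than in either S library. Tpm2, beta tropomyosin, was at 19.05 CPM in C1, 39.6 in C2, 16.9 in S1 and 11.7 in S2, a narrower range (log2 fold change 1.04 ± 0.51, adjusted p = 0.395, edgeR). Nebulin (Neb), the ruler of thin filament length, was at 2.86 CPM in C1, 10.99 in C2, 3.35 in S1 and 2.93 in S2, so that C2 stood alone above 3 libraries that lay together.

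Among the troponins, fast and slow partners parted. Fast troponin I (Tnni2) was at 11.8 CPM in C1, 45.7 in C2, 10.8 in S1 and 8.24 in S2, whereas slow troponin I (Tnni1) was at 10.9 CPM in C1, 11.2 in C2, 10.4 in S1 and 6.50 in S2. C2 stood far above the rest in the fast gene and level with C1 in the slow one. The fast calcium sensor troponin C (Tnnc2) was at 13.004 CPM in C1, 44.7 in C2, 10.1 in S1 and 5.93 in S2, and its slow partner Tnnc1 was at 1.39 CPM in C1, 2.72 in C2, 1.94 in S1 and 1.58 in S2, with overlapping groups. Slow troponin T (Tnnt1) did not follow the other slow troponins, with 33 counts in C1, 65 in C2, 22 in S1 and 13 in S2 and no overlap of the groups (log2 fold change 1.62 ± 0.55, adjusted p = 0.0959, edgeR).

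Z-disc genes also ran from level to steeply different, and not by fibre type. Ldb3, which encodes the Z-disc protein ZASP, was at 23.5 CPM in C1, 27.8 in C2, 19.4 in S1 and 19.6 in S2 (log2 fold change 0.40 ± 0.15, adjusted p = 0.133, edgeR). Actn3, the alpha-actinin of fast fibres, was at 10.5 CPM in C1, 30.2 in C2, 6.93 in S1 and 4.59 in S2 (log2 fold change 1.82 ± 0.77, adjusted p = 0.365, edgeR). Actn2, the alpha-actinin that heart and all skeletal fibres use, was at 4.74 CPM in C1, 6.56 in C2, 4.16 in S1 and 4.59 in S2, close together in all 4 libraries. Des, which encodes the desmin filament that joins neighbouring Z-discs, was at 5.02 CPM in C1, 15.8 in C2, 3.45 in S1 and 2.77 in S2 (log2 fold change 1.74 ± 0.70, adjusted p = 0.308, edgeR). Myoz1, the calsarcin of fast fibres, was at 3.24 CPM in C1, 13.8 in C2, 1.73 in S1 and 1.17 in S2 and had the second highest log2 fold change of the 40 (log2 fold change 2.56 ± 0.99, adjusted p = 0.32, edgeR). Its slow partner Myoz2 had 15 counts in C1, 76 in C2, 19 in S1 and 12 in S2, a range as wide as that of many fast genes, and there the groups overlapped. They overlapped too for the titin cap gene Tcap, at 3.94 CPM in C1, 16.7 in C2, 4.29 in S1 and 1.97 in S2, and for the actin-binding Xirp2, at 1.69 CPM in C1, 6.65 in C2, 2.04 in S1 and 0.544 in S2. Myotilin (Myot), an actin cross-linker, was at 2.05 CPM in C1, 7.94 in C2, 1.46 in S1 and 1.19 in S2, with no overlap.

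Among titin and M-band genes, Trim63 was the called member. It encodes MuRF1, a ubiquitin ligase of the M-band known to rise when muscle wastes (chromosome 4, 134315120 to 134329629). It had 12 counts in C1, 40 in C2, 2 in S1 and 2 in S2, so the call rests on few reads (log2 fold change 3.76 ± 0.92, adjusted p = 0.0292, edgeR). The call was lost without C2 (adjusted p = 0.65), without S1 (0.331) and without S2 (0.213) in edgeR. Fbxo32, which encodes atrogin-1, another ubiquitin ligase of wasting muscle, had 1578 counts in C1, 1183 in C2, 1300 in S1 and 1349 in S2 and did not pass (log2 fold change 0.19 ± 0.14, adjusted p = 0.486, edgeR). Ttn, the giant spring of the sarcomere, was at 7.93 CPM in C1, 28.7 in C2, 7.11 in S1 and 5.41 in S2 (log2 fold change 1.55 ± 0.89, adjusted p = 0.483, edgeR). The M-band linker genes had smaller errors. Myom1 was at 3.36 CPM in C1, 7.79 in C2, 1.94 in S1 and 2.51 in S2 (log2 fold change 1.32 ± 0.38, adjusted p = 0.0716, edgeR), and Myom2 was at 1.22 CPM in C1, 4.83 in C2, 0.706 in S1 and 0.674 in S2 (log2 fold change 2.13 ± 0.61, adjusted p = 0.0875, edgeR).

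The 4 calcium handling genes did not overlap between the groups and were higher in the C libraries, as were 28.2% of all tested genes. The same held for the 4 titin and M-band genes. Atp2a1, the calcium pump SERCA1 of fast fibres, was at 17.6 CPM in C1, 62.4 in C2, 9.88 in S1 and 5.13 in S2, a 12.2-fold range (log2 fold change 2.41 ± 1.00, adjusted p = 0.371, edgeR). Casq1, which binds calcium inside the store, was at 8.71 CPM in C1, 17.6 in C2, 7.09 in S1 and 5.80 in S2 (log2 fold change 1.03 ± 0.32, adjusted p = 0.118, edgeR). The calcium release channel Ryr1 was at 3.36 CPM in C1, 5.89 in C2, 2.12 in S1 and 2.51 in S2 (log2 fold change 1.00 ± 0.32, adjusted p = 0.0875, edgeR). Ranges were thus wide for the pump and narrow for the channel. Its voltage sensor Cacna1s was at 0.943 CPM in C1, 2.90 in C2, 0.889 in S1 and 0.337 in S2.

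Metabolic genes ranged widely in how much they differed. Pygm, muscle glycogen phosphorylase (chromosome 19, 6384408 to 6398464), was at 178 CPM in C1, 183 in C2, 158 in S1 and 155 in S2, the narrowest fold range of the 40 (log2 fold change 0.21 ± 0.13, adjusted p = 0.362, edgeR). Ckm, muscle creatine kinase (chromosome 7, 19411094 to 19421583), was at 20.1 CPM in C1, 73.1 in C2, 11.2 in S1 and 8.47 in S2 (log2 fold change 2.24 ± 0.93, adjusted p = 0.369, edgeR). Eno3, the muscle enolase, was at 15.3 CPM in C1, 34.4 in C2, 11.6 in S1 and 8.91 in S2, between these (log2 fold change 1.27 ± 0.53, adjusted p = 0.332, edgeR). Myoglobin (Mb) was at 5.77 CPM in C1, 18.3 in C2, 7.03 in S1 and 4.27 in S2, and here S1 lay above C1. Per kilobase of transcript, the highest mean levels over the 4 libraries were those of Pygm (58.7 CPM per kb), Tnnt3 (46.2), Acta1 (34.8) and Mylpf (34.02).

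Fast fibre genes differed between libraries more than slow ones in sum. The 13 fast genes summed to 174 CPM in C1, 600.4 in C2, 125 in S1 and 88.004 in S2. The 7 slow genes summed to 18.1 CPM in C1, 28.5 in C2, 18.9 in S1 and 12.4 in S2. From S2 to C2 the fast sum was 6.82-fold higher and the slow sum 2.30-fold. Fast counts were 9.66 times the slow counts in C1 (95% interval 8.63 to 10.9), 21.04 times in C2 (19.2 to 23.1), 6.64 times in S1 (5.93 to 7.42) and 7.11 times in S2 (6.18 to 8.13). These Clopper-Pearson intervals take 2 counts as 1 read pair and cover counting error only. The S libraries overlapped each other, and both C libraries lay above them and apart from each other. On the log2 scale the ratio was 3.83 ± 0.79 (SD, n = 2) in the C libraries and 2.78 ± 0.07 (SD, n = 2) in the S libraries. The difference of 1.05 gave p = 0.333 in an exact permutation test (two-sided), the smallest that 2 libraries against 2 allow. Summed per kilobase of transcript, fast levels were 8.27 times the slow levels in C1, 17.4 times in C2, 6.18 times in S1 and 7.27 times in S2.

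**Figure D3:**
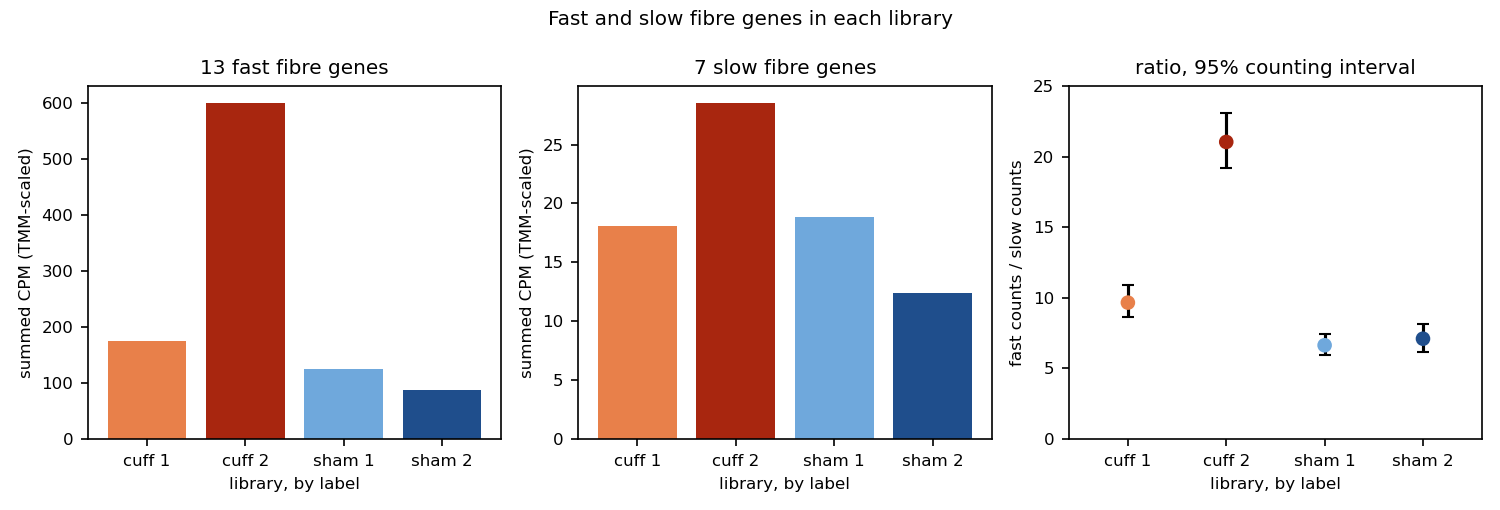
Summed CPM of the 13 fast (left) and 7 slow (middle) fibre genes, and counts of fast genes per count of slow genes with the 95% counting interval (right), in each library. The ratio is 21.04 in the second library labelled cuff and between 6.64 and 9.66 in the other 3.

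Much of the slow sum came from genes that hardly varied. Tnni1 gave 393 of 651 slow counts in C1, 383 of 974 in C2, 397 of 722 in S1 and 251 of 478 in S2. Without Tnni1, a choice made after seeing the data, the ratio of fast to slow counts was 24.4 in C1, 34.7 in C2, 14.8 in S1 and 14.96 in S2. Without Tnni1, Myh7 and Tnnc1, chosen in the same way, it was 52.0 in C1, 55.7 in C2, 40.7 in S1 and 66.6 in S2, with overlapping groups and a difference of 0.048 on the log2 scale. The other slow genes had wide ranges, as fast genes did. From the lowest to the highest library, CPM differed 13.4-fold in Myl2, 8.54-fold in Myl3, 7.16-fold in Myoz2 and 5.66-fold in Tnnt1, and between 3.03-fold in Casq1 and 12.2-fold in Atp2a1 among the fast genes. Partner pairs differed in their turn. Counts of Mylpf were 12.7 times those of Myl2 in C1, 12.9 times in C2, 7.14 times in S1 and 30.7 times in S2. Counts of Tnni2 were 1.08 times those of Tnni1 in C1, 4.07 times in C2, 1.04 times in S1 and 1.27 times in S2.

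Myh4 made up more of the myosin heavy chain counts in the C libraries than in the S libraries. Its share of the 4 adult chains was 74.6% in C1 (95% interval 71.1 to 77.8), 76.3% in C2 (74.5 to 78.0), 63.6% in S1 (59.3 to 67.7) and 58.7% in S2 (53.2 to 63.8). These intervals overlapped within each labelled group and not between the groups. They cover counting error only, not variation between libraries of a group. Myh7, whose CPM did not follow that of Myh4, is part of the total, so the share depends on it too. The share of Myh7 was 6.36% in C1 (4.71 to 8.54), 2.73% in C2 (2.11 to 3.46), 12.8% in S1 (9.97 to 15.9) and 16.5% in S2 (12.9 to 21.01), so here C1 and C2 also differed beyond counting error. Myh1 stayed between 12.3% and 16.1% in all 4 libraries.

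A further question was whether the members kept 1 ratio to each other from library to library, as transcripts from a single source of muscle would. For 38 members with at least 10 counts in every library, the ratio of C2 to C1 had a median of 3.28-fold. On the log2 scale these ratios had an SD of 0.63 over genes, against 0.23 from counting error in read pairs. The SD was 0.54 between S1 and S2 (0.33 from counting error) and 1.03 between C2 and S2 (0.28 from counting error). Over all tested genes with as many counts, the SD was 0.42 between C2 and C1, 0.37 between S1 and S2 and 0.57 between C2 and S2. At this limit the members' ratios were spread wider in these pairs, but counting error was not computed for all genes. With at least 50 counts in every library, 30 members had an SD of 0.64 between C2 and C1 and 1.02 between C2 and S2. Between S1 and S2 their SD was 0.37, level with that of all tested genes with at least 10 counts. Over the 13 fast genes alone, the SD was 0.36 between C2 and C1 (0.14 from counting error) and 0.26 between S1 and S2 (0.22 from counting error). These values were below those of all tested genes. Between C1 and S1, however, the SD was 0.43 for the fast genes (0.19 from counting error), 0.45 for the 38 members (0.28 from counting error) and 0.42 for all tested genes.

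Several members kept a near constant ratio to Acta1, whose own CPM ranged 9.93-fold. Myh4 had 0.749 counts per count of Acta1 in C1, 0.831 in C2, 0.776 in S1 and 0.819 in S2. These ratios lay within 1.11-fold of each other, and their 95% intervals all overlapped. The ratio to Acta1 stayed within 1.5-fold over the 4 libraries in 5 of 39 members, Myh4, Atp2a1, Ckm, Tnnc2 and Myoz1, and within 2-fold in 18 of 39. It moved over 4-fold in 8 of 39, Mybpc1, Pygm, Myh7, Ldb3, Actn2, Tnnc1, Tnni1 and Ryr1. Each of these 8 was highest relative to Acta1 in S2 and lowest in C2. Pygm, for example, had 4.71 counts per count of Acta1 in C1, 1.43 in C2, 7.10 in S1 and 12.01 in S2.

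Mb and Myh2 showed another pattern. Mb had 0.153 counts per count of Acta1 in C1, 0.142 in C2, 0.316 in S1 and 0.331 in S2. Its 95% intervals, which cover counting error only, overlapped within each labelled group and not between the groups. Myh2 had 0.0470 counts per count of Acta1 in C1, 0.0725 in C2, 0.137 in S1 and 0.120 in S2, with both S libraries above both C libraries, although the intervals of C2 and S2 overlapped.

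**Figure D4:**
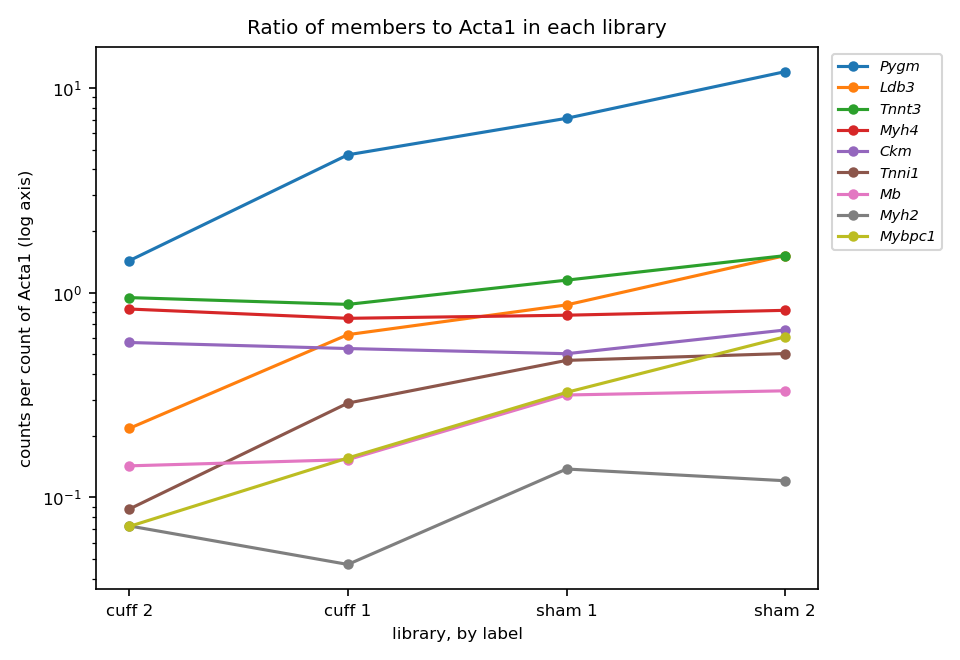
Counts of 9 muscle genes per count of Acta1 (log axis) in each library, with libraries ordered from the highest to the lowest summed level of members and lines joining the points of 1 gene. Myh4 is flat at 0.749 to 0.831, and Pygm runs from 1.43 to 12.01.

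Taking S2, the lowest library, as a floor (a choice made after seeing the data), the rise of each library above it was set against the rise of C2. For the sum of fast genes, C1 reached 16.9% of the rise of C2, and S1 reached 7.31%. Over the role groups, with metabolism counted without Pygm, C1 reached between 12.4% (titin and M-band) and 22.5% (calcium handling), and S1 between 3.41% (titin and M-band) and 9.59% (thin filament). For the sum of slow genes, C1 reached 35.1% and S1 40.2%, so S1 lay above C1 here.

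Other skeletal muscle genes mostly lay in the same direction. Of 40 further genes, 37 were tested, 34 had a positive log2 fold change (91.9%, against 52.1% of all tested genes), 2 rose, 0 fell and 35 did not pass. The called share was 5.41%, near the 4.11% of all tested genes. The list had a median log2 fold change of 0.88 beside 0.02 over all tested genes. Lmod3, a nucleator of thin filaments, had 20 counts in C1, 36 in C2, 0 in S1 and 5 in S2 and rose (log2 fold change 3.56 ± 0.92, adjusted p = 0.037, edgeR), but it passed the filter on low counts through the C libraries alone, so it had to be higher there. Ankrd23, an ankyrin repeat gene whose product binds titin, was at 9.98 CPM in C1, 18.7 in C2, 5.73 in S1 and 6.81 in S2 and rose (log2 fold change 1.19 ± 0.28, adjusted p = 0.0441, edgeR). Cacnb1, a calcium channel subunit with the highest mean CPM of that list, hardly differed, at 34.5 CPM in C1, 35.5 in C2, 28.01 in S1 and 33.3 in S2.

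No tested gene of developing, denervated or regenerating muscle passed. Of 14 genes of developing or denervated muscle, 8 were tested in edgeR and 1, Actc1, had an unadjusted p under 0.05. Actc1 had 20 counts in C1, 41 in C2, 7 in S1 and 8 in S2, with no overlap of the groups (log2 fold change 2.15 ± 0.67, adjusted p = 0.074, edgeR). Of the 8 tested, Fbxo32 and Gadd45a, a stress gene that had 244 counts in C1, 282 in C2, 329 in S1 and 272 in S2, had the highest mean CPM. Chrng, the foetal acetylcholine receptor subunit, had 0 counts in all 4 libraries, and Myh3, the embryonic myosin, had 12 counts in C1, 11 in C2, 20 in S1 and 19 in S2. Among 7 satellite cell and myogenic genes, 2 were tested and none had an unadjusted p under 0.05. Chodl, at the highest mean CPM of these, had 2066 counts in C1, 910 in C2, 2143 in S1 and 1865 in S2. It stood far above the rest of that list, and which cells its counts came from was not tested. Myod1, a master factor of myogenesis, had 0 counts in C1, 2 in C2, 2 in S1 and 2 in S2, and Pax7, the satellite cell factor, had 0 counts in C1, 12 in C2, 2 in S1 and 2 in S2. Of 8 cardiac genes, 6 were tested, none passed and 2, Tnni3 and Ryr2, had an unadjusted p under 0.05. Tnni3 had 40 counts in C1, 74 in C2, 30 in S1 and 20 in S2 (log2 fold change 1.32 ± 0.49, adjusted p = 0.126, edgeR). Ryr2 went the other way (log2 fold change -0.44 ± 0.17, adjusted p = 0.165, edgeR). Levels in that list were uneven. Ryr2, a calcium release channel of heart and neurons, had 5054 counts in C1, 4288 in C2, 5558 in S1 and 8330 in S2, the atrial myosin Myh6 had 401 counts in C1, 293 in C2, 256 in S1 and 321 in S2, and the atrial light chain Myl7 had 2 counts in C1, 8 in C2, 4 in S1 and 1 in S2.

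Markers of other tissues also differed between the libraries, most but not all in orders other than that of muscle. The 5 Schwann cell genes, none at 0, summed to 705 CPM in C1, 1718 in C2, 354 in S1 and 759.7 in S2, so S2 was second highest here and lowest for muscle. The 8 leptomeningeal and fibroblast genes, all highest in C2, summed to 1032 CPM in C1, 1804 in C2, 904 in S1 and 824 in S2. The 8 bone and bone marrow genes, 5 of them called higher in the C libraries (1.15% of all tested genes were), summed to 39.96 CPM in C1, 49.7 in C2, 12.2 in S1 and 14.9 in S2. In this sum C1 and C2 were closer to each other than in muscle, but single genes of the list were not alike. Highest in C2 were 4 of the 8, among them Mpo (5.88 CPM in C1, 13.8 in C2) and Elane (1.44 in C1, 4.34 in C2). Hp was at 11.3 CPM in both, and Ctsk was at 12.2 in C1 and 9.46 in C2. Of the 5 called, Bglap and Ppbp would not have passed the filter on low counts on the S libraries alone. The 6 endothelial genes, all called higher in the C libraries, as 1.15% of all tested genes were, summed to 150.00 CPM in C1, 156 in C2, 80.6 in S1 and 88.5 in S2. The 8 smooth muscle genes, none of which passed and 1 of which had an unadjusted p under 0.05 in edgeR, summed to 54.9 CPM in C1, 79.5 in C2, 31.4 in S1 and 53.005 in S2. The 8 sensory ganglion genes summed to 74.7 CPM in C1, 102 in C2, 77.01 in S1 and 81.9 in S2, and Scn10a, a sodium channel of pain fibres, had 0 counts in C1, 213 in C2, 0 in S1 and 0 in S2. The 7 adipocyte genes, with Lep at 0 in all 4 libraries and Car3 called higher in the C libraries, summed to 5.80 CPM in C1, 9.99 in C2, 2.85 in S1 and 3.26 in S2. Car3 alone gave 4.05 CPM in C1, 5.54 in C2, 1.54 in S1 and 1.66 in S2, and whether it reflects adipocytes here was not tested. The part of these cell types in the muscle values was not tested.

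**Figure D5:**
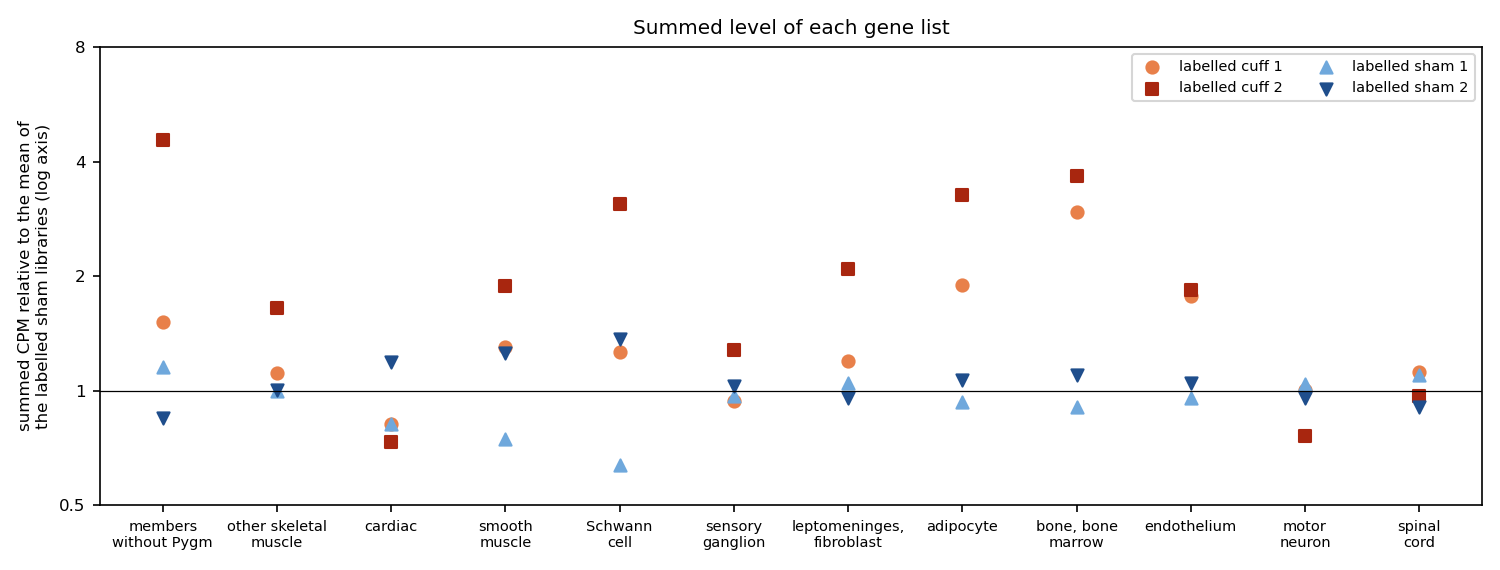
Summed CPM of each gene list in each library relative to the mean of the libraries labelled sham (log axis). Muscle, Schwann cell and leptomeningeal genes are highest in the second library labelled cuff, and so are smooth muscle, sensory ganglion and adipocyte genes. Bone marrow and endothelial genes are raised in both libraries labelled cuff and are also highest in the second. Muscle genes in the first library labelled cuff are above both libraries labelled sham.

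Muscle genes were prominent among all genes that marked C2. Of 13194 tested genes with at least 100 counts there, ranked by their CPM in C2 over the mean of the other 3 libraries, the first 50 held 16 members and the first 100 held 22, out of 34 members with that many counts. Myoz1 ranked highest of the members, at 5, with a ratio of 6.75. Above it were Avil (14.8), a gene of sensory neurons, Fxyd2 (11.6), Trarg1 (7.99) and Msln (7.08). Atp2a1 followed at rank 7 with a ratio of 5.74, and Myh4 at rank 9 with 5.70.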

How the data were processed

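RNA was measured in 4 strand-specific, poly(A)-selected libraries read as pairs, per the labels' protocols. Per the submitters' processing notes, the tools were Trimmomatic 0.30, HISAT2 2.0.1 and featureCounts, with genome mm10. The sources used here do not name the annotation, the strand setting or whether reads or pairs were counted. Each deposited file gives raw counts for 1 library by Entrez identifier. In the deposited file of C2, identifier and count were joined by a literal backslash and letter, and were split there. Among genes with 1 to 20 counts, 63.5% to 67.0% had an even count, against 49.5% to 49.97% of genes over 100 counts, so counting error was computed with 2 counts as 1 read pair. Of 27179 identifiers, 25275 were matched in a RefSeq table (GRCm38.p6), 18 through GENCODE M21 and 1886 not at all. All pairs of libraries differed beyond sampling noise (chi-square over degrees of freedom at least 25.4).

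Genes were filtered with filterByExpr, scaled by TMM and tested with edgeR 4.0.16 in R 4.3.3 (robust quasi-likelihood, group alone in the model). Each standard error is the unshrunk coefficient over the square root of F. The test was checked on simulated counts. Lengths are those of the longest GENCODE M21 coding transcript. Alternatives were other scalings and filters, DESeq2 1.42.0, limma-voom (limma 3.58.1), a replicate block, leaving out each library and other choices of genes. By rule, values in every library were given for the 3 members of highest mean CPM in each role, called members, members under 10 counts in any library and members whose log2 ratio of C2 to C1 lay over 1 from the median. From other lists, genes of highest CPM or smallest p were named. Scn10a, Hoxc8, Hoxb13, Hoxc13, Myh3, Chrng, Myod1, Pax7, Myl7 and Lep were chosen after their values were seen. The members and lists were chosen with earlier results of these data known. 1 Schwann cell gene is not reported here.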

Additional observations from a re-analysis of the deposited data

How the results depend on the processing

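The number of called members, 1 of 40, was 2 with upper quartile scaling, 5 with no filter, 6 in DESeq2 and 0 in limma-voom. There, 29 had an unadjusted p under 0.05, as 20.5% of all tested genes did. With 1 library left out it ran from 0 to 33 and the median log2 fold change from 0.55 to 2.19. With the replicate number as a block 2 members were called. The labels pair the libraries by number alone, and deviations of same-numbered libraries correlated with r = 0.116 over genes. The log2 fold change of Mybpc1 turned negative with RLE scaling (-0.017), no filter (-0.00015), DESeq2 (-0.017), limma-voom (-0.040) and the block (-0.029). With 1 library left out, Mybpc1 ran from -0.36 to 0.24, Myh7 from -0.42 to 0.19, Myh2 from -0.38 to 1.95, Tnnc1 from -0.34 to 0.58 and Neb from -0.14 to 1.76. The cause was not tested. Over the 40 genes and all alternatives, 375 values kept their direction and side of the threshold, 45 newly passed it, 4 no longer passed and 12 changed sign. The difference in the log2 ratio of fast to slow genes ran from 0.49 without C2 to 1.61 without C1, but was 0.048 without Tnni1, Myh7 and Tnnc1, an alternative added after seeing the data. The SD of the C2 to C1 ratios stayed between 0.61 and 0.64 with at least 50 counts, without Des, Tpm2, Pygm, Eno3 and Trim63, or by role. By fibre type it was not stable, at 0.36 over the fast genes and 0.84 over the slow genes. Depth limits Trim63 and Myl3 most, with 2 and 8 counts in their lowest libraries.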
